A study of Homo sapiens with 6 samples.

Results

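Mucins are large glycoproteins that carry dense chains of O-linked sugars and line epithelial surfaces. Measured here were the transcripts of 10 mucin genes (MUC1, MUC2, MUC3A, MUC4, MUC5AC, MUC5B, MUC6, MUC13, MUC16 and MUC20) in MDA-MB-231 cells, a human triple-negative breast cancer cell line that lacks oestrogen receptor, progesterone receptor and HER2 amplification. They are 10 of the 27745 genes in the count table, and each had a row in it. The genes were chosen by family name, with earlier results of these same counts known, MUC5AC above all, so their levels and differences are given as a description and carry no test of their own.

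RNA-seq was performed on 6 samples in 3 groups of 2. All cells were infected with lentivirus made from the pLKO.1 vector. The control group received sh-TRC, and the knockdown groups received sh-MIR100HG-1 or sh-MIR100HG-2, which are different shRNAs against MIR100HG, a long non-coding RNA and microRNA host gene. The comparison asks which transcripts differ once MIR100HG is lowered, and everything was done in 1 cell line in culture. The study calls the knockdown replicates biological replicates. The labels number the samples without saying what separates them, so p-values measure the spread between these samples, which may be technical in part.

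Total counts per sample ranged from 43804736 to 64588388, and the common biological coefficient of variation was 27.8%. Counts were scaled by TMM, which gives each library a single factor and assumes that most genes do not differ between libraries. They are given as CPM, counts scaled to a common library size. MIR100HG stood at 41.9 and 58.5 CPM in the controls, at 15.2 and 13.2 in the sh-MIR100HG-1 samples and at 16.6 and 10.4 in those of sh-MIR100HG-2. Its log2 fold change (log2FC) was -1.86 (SE 0.26), with an adjusted p of 0.381 in edgeR's quasi-likelihood test over 15372 genes, and no gene had a smaller adjusted p. Of the cell line markers, the mesenchymal genes VIM and CD44 were high in every sample, at 312 to 406 and 53.5 to 95.2 FPKM (CPM per kilobase of exon). The keratin genes KRT8, KRT18 and KRT19 were high as well, at 81.0 to 305 FPKM. PGR had 0 counts in 5 of 6 samples, ESR1 lay between 0.00879 and 0.204 FPKM, CDH1 between 0.243 and 1.14, EPCAM between 1.73 and 5.16 and ERBB2 between 6.94 and 11.3.

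Mucins fall into families with different jobs. The gel-forming mucins MUC2, MUC5AC, MUC5B and MUC6 are secreted, join end to end through cysteine-rich domains and make up mucus. MUC5AC is the main mucin of the stomach surface and, with MUC5B, of airway mucus, whereas MUC2 is known for the gut and MUC6 for the gastric glands. The membrane mucins MUC1, MUC3A, MUC4, MUC13, MUC16 and MUC20 span the plasma membrane, most of them with a short cytoplasmic tail, and several signal together with receptor kinases. MUC1 is a classical marker of breast epithelium and MUC16 is the serum marker CA125.

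The gel-forming genes sit together on the short arm of chromosome 11 (GRCh37), in the order MUC6 (1012821 to 1036706, minus strand), MUC2 (1074875 to 1104419, plus strand), MUC5AC (1151580 to 1222364, plus strand) and MUC5B (1244296 to 1283402, plus strand). MUC20 (195447753 to 195467994, plus strand) and MUC4 (195473636 to 195539148, minus strand) are neighbours on chromosome 3, where MUC13 also lies (124624289 to 124672663, minus strand). MUC1 is on chromosome 1 (155158300 to 155162707, minus strand), MUC3A on chromosome 7 (100547187 to 100611118, plus strand) and MUC16 on chromosome 19 (8959520 to 9092018, minus strand).

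Exons counted for MUC5AC formed 34 blocks of 5930 bases in all. GRCh37 holds a run of 50000 unknown bases inside this gene, from 1162760 to 1212759, with 15 counted blocks before it and 19 after it. The counts of MUC5AC therefore come from its outer exons, and no read can be assigned to the stretch between them. MUC3A has a run of the same size, from 100556044 to 100606043. The other 8 genes have no unknown bases in GRCh37.

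**Figure D1:**
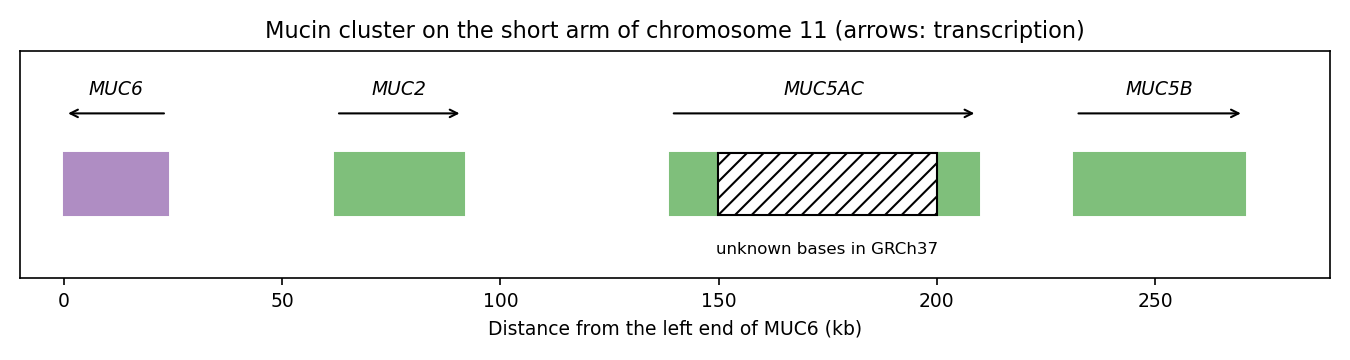
Map of the gel-forming mucin genes on the short arm of chromosome 11 in GRCh37, as distance in kb from the left end of MUC6, with arrows for the direction of transcription (MUC6 on the minus strand in purple, the others on the plus strand in green). The hatched box is the run of 50000 unknown bases inside MUC5AC, which leaves only its outer exons to be counted.

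Start regions of the members are shown to give the sequence context of genes whose levels are described below. RefSeq promoter windows (GRCh38.p14), each reaching from 250 bases before to 50 bases after a start site, were matched for 6 of the 10 genes (MUC1, MUC2, MUC3A, MUC4, MUC13 and MUC16), and each window occurred at 1 place on its chromosome in GRCh37. Where the table lists several start sites (MUC1 and MUC16), the first was used. The start site lay within 21 bases of the 5′ end of the counted gene for MUC1, MUC2 and MUC3A. It lay 348 bases inside the counted gene for MUC4, 19068 bases inside it for MUC13 and 84409 bases upstream of it for MUC16. MUC5AC, MUC5B, MUC6 and MUC20 had no matched window. The windows of MUC1 (chr1:155162657-155162956, minus strand), MUC2 (chr11:1074624-1074923, plus strand) and MUC4 (chr3:195538751-195539050, minus strand) are printed 5′ to 3′ because these are the best measured of the matched membrane mucins and the matched member of the chromosome 11 cluster. Capitals mark matches to motifs searched on both strands.
MUC1: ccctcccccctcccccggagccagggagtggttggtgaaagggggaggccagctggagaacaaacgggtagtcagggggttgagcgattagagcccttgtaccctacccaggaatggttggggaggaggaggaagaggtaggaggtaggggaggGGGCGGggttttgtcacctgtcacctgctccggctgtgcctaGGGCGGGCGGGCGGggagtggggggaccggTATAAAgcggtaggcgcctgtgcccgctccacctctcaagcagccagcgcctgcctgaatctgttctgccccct
MUC2: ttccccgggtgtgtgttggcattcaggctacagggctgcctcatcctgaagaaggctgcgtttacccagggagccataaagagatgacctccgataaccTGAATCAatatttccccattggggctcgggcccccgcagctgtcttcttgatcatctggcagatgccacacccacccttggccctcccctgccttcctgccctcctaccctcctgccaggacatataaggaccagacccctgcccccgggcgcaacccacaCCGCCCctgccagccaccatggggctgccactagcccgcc
MUC4: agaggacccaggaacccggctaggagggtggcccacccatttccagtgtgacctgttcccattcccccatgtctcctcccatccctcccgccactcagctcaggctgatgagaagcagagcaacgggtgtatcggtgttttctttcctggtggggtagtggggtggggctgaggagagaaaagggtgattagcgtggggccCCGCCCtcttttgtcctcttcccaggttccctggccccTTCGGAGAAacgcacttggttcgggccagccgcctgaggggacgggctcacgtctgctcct

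The motifs searched were a loose AP-1 pattern (TGANTCA, with any base at N), the GC box (GGGCGG) and the TATA box (TATAAA). A forkhead motif (TGTTTAC), a STAT motif (TTCNNNGAA) and the CRE half-site TGACG were searched as well. The MUC1 window had a GC content of 65.7% and held 4 GC boxes, of which 3 overlap in 1 run, and 1 TATA box. Over 35116 RefSeq promoter windows of the same length, 44.95% held a GC box and 11.53% held a TATA box. The MUC2 window held 1 match to the loose AP-1 pattern, as TGAATCA, and 1 GC box. This loose pattern was found in 7.71% of all windows. That of MUC4 held 1 GC box and 1 STAT motif, which 7.66% of all windows held. The forkhead motif, found in 3.42% of all windows, was in none of the 6, and TGACG, found in 24.55%, was in those of MUC3A and MUC13, with 2 matches each. A match of letters is a description of the window, not a site of binding.

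MUC5AC was the most abundant of the 10 genes per length of exon. Its mean over the 6 samples was 21.6 FPKM, above that of 85.1% of the genes tested, and MUC1 followed at 6.62 FPKM. MUC5B (0.588), MUC4 (0.518), MUC6 (0.140) and MUC2 (0.109 FPKM) formed a lower tier, and MUC13 (0.0253), MUC20 (0.0169), MUC3A (0.0124) and MUC16 (0.00905 FPKM) were lowest. MUC16 has the longest exons, 43830 bases in all, and was counted 19.7 times per sample on average, against 3.5 to 4.5 times for the other 3 of this tier. Without sh-TRC replicate 2 the mean of MUC5AC was 11.1 FPKM, above 72.2% of genes, and that of MUC5B was 0.324 FPKM, below the 0.490 FPKM of MUC4. MUC5AC lay above MUC1 in each of the 6 samples, although their ranges over the samples overlap (6.0 to 74.4 and 4.11 to 11.8 FPKM). The ranges of MUC5B (0.127 to 1.91 FPKM) and MUC4 (0.276 to 0.893 FPKM) also overlap, as do those of MUC6 (0.0261 to 0.289 FPKM) and MUC2 (0.0109 to 0.279 FPKM), so the order within these pairs was not resolved. MUC5AC made up between 54.2% and 83.5% of the summed FPKM of the 10 genes.

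**Figure D2:**
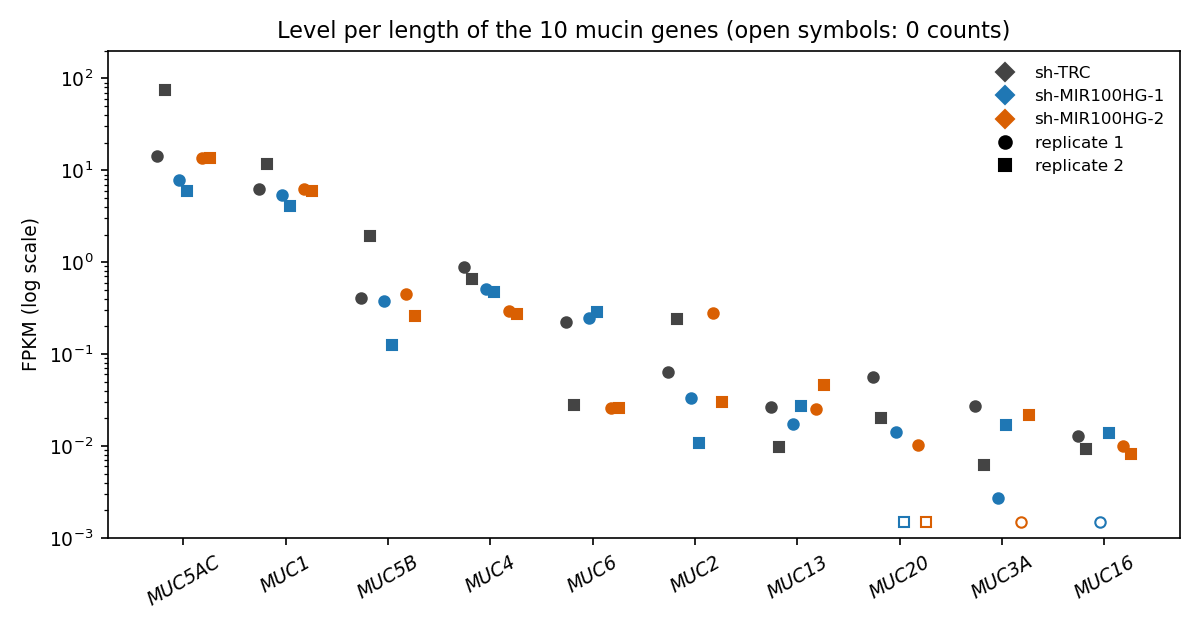
FPKM of the 10 mucin genes on a log axis, 1 point per sample, with colours for the 3 groups and shapes for replicates 1 and 2; open symbols at the bottom stand for 0 counts. MUC5AC and MUC1 lie above 4 FPKM in every sample, and the 4 genes at the right lie below 0.06 FPKM.

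MUC5AC transcripts were counted 4527 and 25980 times in sh-TRC replicates 1 and 2, 3103 and 1507 times in the sh-MIR100HG-1 samples and 3675 and 4028 times in those of sh-MIR100HG-2. After scaling these are 84.3 and 441 CPM in the controls, 46.7 and 35.6 CPM with sh-MIR100HG-1, and 81.0 and 80.5 CPM with sh-MIR100HG-2. Neither control was as low as any of the 4 knockdown samples, yet the highest of these reached 96.1% of the lower control. The gap between the groups rests on sh-TRC replicate 2, which stood 5.24 times above the other control.

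Control samples averaged 263 ± 253 CPM (SD, n = 2), against 41.2 ± 7.88 in the sh-MIR100HG-1 group and 80.7 ± 0.391 in the sh-MIR100HG-2 group (SD, n = 2 each). The fitted log2FC of MUC5AC was -2.19 (SE 0.52), a level 4.56 times lower after knockdown. Without sh-TRC replicate 2 it was -0.55, and without sh-TRC replicate 1 it was -2.94. The shRNAs gave -2.67 (SE 0.60) for sh-MIR100HG-1 and -1.70 (SE 0.60) for sh-MIR100HG-2, both against the same control samples. Both sh-MIR100HG-2 samples lay above both sh-MIR100HG-1 samples, with a difference of 0.97 on the log2 scale (SE 0.60). In bulk RNA, fewer cells that express a mucin and less mucin RNA per cell cannot be told apart.

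MUC5B, the other main airway mucin, had 7.56 and 35.5 CPM in the controls, 7.05 and 2.36 with sh-MIR100HG-1, and 8.35 and 4.81 with sh-MIR100HG-2. As for MUC5AC, sh-TRC replicate 2 was the highest sample, here 4.70 times above replicate 1, and sh-MIR100HG-2 replicate 1 lay above the lower control. The log2FC was -1.95 (SE 0.62) in all samples and -0.44 without sh-TRC replicate 2. It was -2.19 (SE 0.72) for sh-MIR100HG-1 and -1.71 (SE 0.71) for sh-MIR100HG-2. MUC5AC exceeded MUC5B in CPM by a factor of 11.2 and 12.4 in the controls, 6.63 and 15.1 with sh-MIR100HG-1, and 9.70 and 16.7 with sh-MIR100HG-2, so this ratio in the controls fell inside its range in the knockdown samples.

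MUC2, the gut mucin, was counted 30 and 122 times in the controls, 19 and 4 times with sh-MIR100HG-1, and 110 and 13 times with sh-MIR100HG-2. These counts correspond to 0.559 and 2.07 CPM, 0.286 and 0.0945 CPM, and 2.42 and 0.260 CPM. Replicates of 1 group differed here as much as the groups did, and sh-MIR100HG-2 replicate 1 was the highest sample of all. The log2FC was -1.35 (SE 0.89), and it ran from -2.53 without sh-MIR100HG-2 replicate 1 to -0.12 without sh-TRC replicate 2. Against the controls it was -2.72 (SE 1.10) for sh-MIR100HG-1 and 0.02 (SE 1.0) for sh-MIR100HG-2.

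MUC6, the gastric gland mucin, was higher in the other control, sh-TRC replicate 1. It was counted 102 and 14 times in the controls, 138 and 103 times with sh-MIR100HG-1, and 10 and 11 times with sh-MIR100HG-2, or 1.90 and 0.238 CPM, 2.08 and 2.43 CPM, and 0.220 and 0.220 CPM. Both sh-MIR100HG-1 samples lay above both controls and both sh-MIR100HG-2 samples lay below both. The log2FC was 1.08 (SE 0.79) for sh-MIR100HG-1 and -2.26 (SE 0.88) for sh-MIR100HG-2, a difference between the shRNAs of -3.34 (SE 0.87).

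For both shRNAs together the log2FC of MUC6 was -0.59 (SE 0.71), and its direction rested on a single library, with 1.56 without sh-TRC replicate 1 and -1.42 without sh-TRC replicate 2. Other genes divided the libraries in the same way. EPCAM, an epithelial adhesion gene among the markers, stood at 9.77 and 5.62 CPM in the controls, 11.7 and 13.0 with sh-MIR100HG-1, and 4.36 and 5.97 with sh-MIR100HG-2. FOS, an immediate early factor of the AP-1 family picked after its values were seen, stood at 181.8 and 3.06 CPM, 251.7 and 242 CPM, and 4.23 and 6.83 CPM. What sets sh-TRC replicate 1 and the sh-MIR100HG-1 samples apart from the rest, and its part in the values of MUC6, was not tested.

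**Figure D3:**
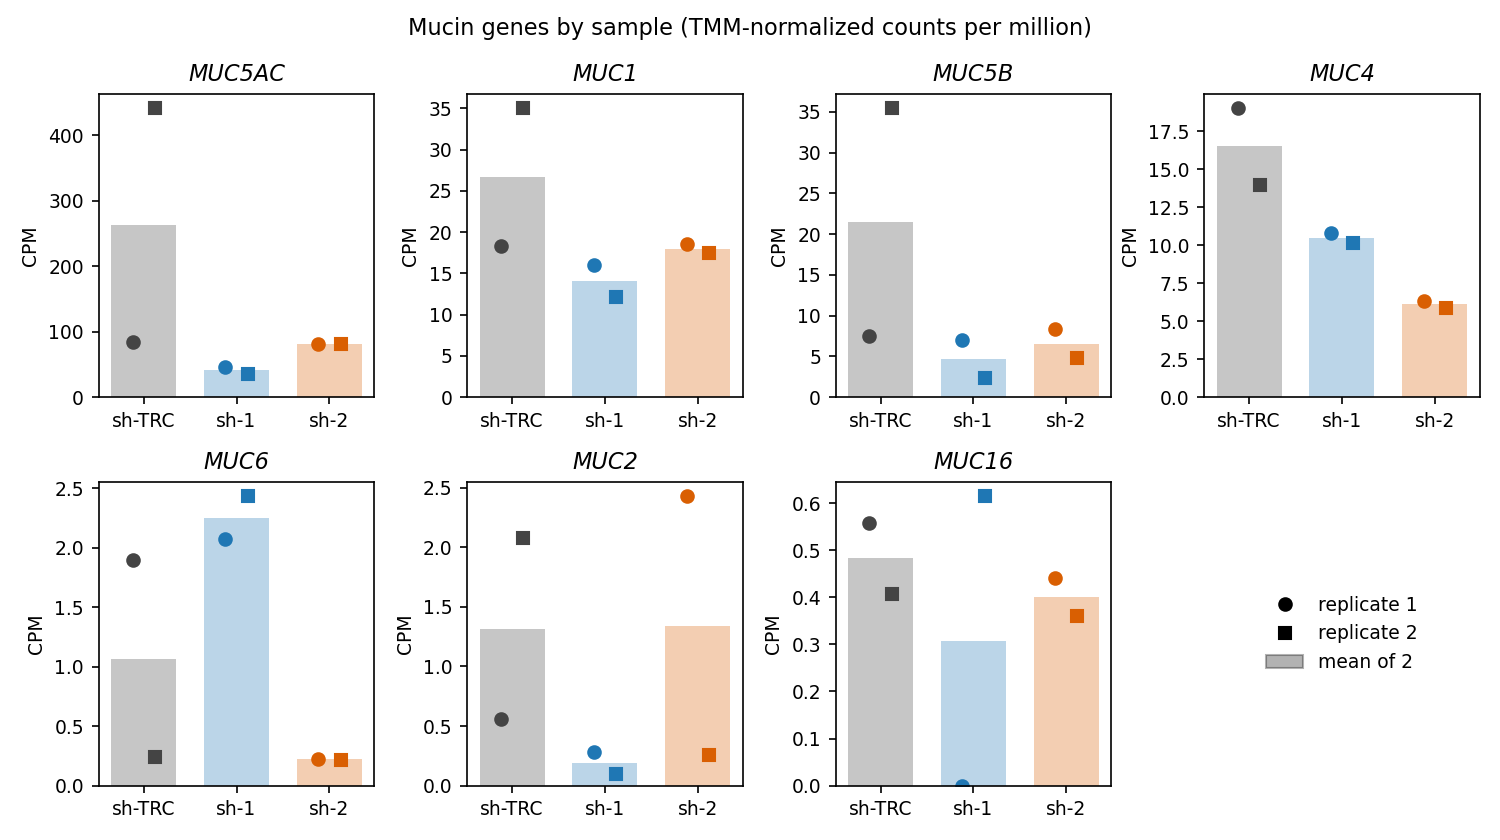
CPM of the 7 mucin genes that passed the filter on low counts, 1 panel per gene with its own axis from 0. Points are samples (circle, replicate 1; square, replicate 2), bars are means of 2, and sh-1 and sh-2 stand for sh-MIR100HG-1 and sh-MIR100HG-2. In MUC5AC, MUC1 and MUC5B, sh-TRC replicate 2 stands above the other 5 samples, whereas in MUC4 the 3 groups do not overlap.

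MUC4, a membrane mucin that binds the receptor kinase ERBB2, separated the groups most cleanly by sample. It was counted 1023 and 824 times in the controls, 719 and 430 times with sh-MIR100HG-1, and 288 and 295 times with sh-MIR100HG-2. In CPM these are 19.0 and 14.0, 10.8 and 10.2, and 6.35 and 5.89. The 3 groups did not overlap, and the highest knockdown sample reached 77.3% of the lower control. Of all genes tested, 9.08% had all knockdown samples below both controls. Both sh-MIR100HG-2 samples lay below both sh-MIR100HG-1 samples in 23.3% of them.

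Group means of MUC4 were 16.5 ± 3.57 CPM in the controls, 10.5 ± 0.476 in the sh-MIR100HG-1 group and 6.12 ± 0.323 in the sh-MIR100HG-2 group (SD, n = 2 each). The log2FC was -1.04 (SE 0.24), a level 2.06 times lower, and it stayed between -1.25 and -0.81 when any 1 sample was left out. It was -0.65 (SE 0.27) for sh-MIR100HG-1 and -1.43 (SE 0.28) for sh-MIR100HG-2, and the shRNAs differed by -0.78 (SE 0.28).

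MUC1 had 18.4 and 35.1 CPM in the controls, 16.0 and 12.2 with sh-MIR100HG-1, and 18.5 and 17.5 with sh-MIR100HG-2. Here too sh-TRC replicate 2 was the highest sample, 1.91 times above replicate 1, and the other 5 samples lay within 12.2 to 18.5 CPM. The log2FC was -0.75 (SE 0.29) in all samples and -0.20 without sh-TRC replicate 2. It was -0.92 (SE 0.33) for sh-MIR100HG-1 and -0.57 (SE 0.33) for sh-MIR100HG-2.

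MUC16, the source of CA125, was counted 30 and 24 times in the controls, 0 and 26 times with sh-MIR100HG-1, and 20 and 18 times with sh-MIR100HG-2. The count of 0 allows a level of up to 0.0452 CPM (3 counts), below the 0.360 to 0.614 CPM of the other 5 samples, so sh-MIR100HG-1 replicate 1 stood apart. The log2FC was -0.50 (SE 1.05), with 0.04 without sh-MIR100HG-1 replicate 1 and -4.00 without sh-MIR100HG-1 replicate 2. Intervals and floors of this kind cover counting error only.

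MUC13, MUC3A and MUC20, all membrane mucins, had at least 5 counts in only 2 samples each and were removed by the filter. MUC13 had between 2 and 8 counts in every sample. MUC3A had 8 and 2 counts in the controls, 1 and 4 with sh-MIR100HG-1, and 0 and 6 with sh-MIR100HG-2. MUC20 had 13 and 5 counts in the controls and 4, 0, 2 and 0 in the knockdown samples. Both controls of MUC20 lay above all 4 knockdown samples, at 0.242 and 0.0850 CPM, and a count of 0 allows at most 0.0708 CPM for this gene and 0.0661 CPM for MUC3A. Fitted without the filter, the log2FC was -2.50 for MUC20, -0.67 for MUC3A and 0.61 for MUC13. Of the 10 members, MUC13 was thus the only one with a value above 0. MUC20 overlaps on the same strand with MUC20-OT1, a non-coding gene with 477 to 1123 counts per sample, and how the counting treated reads in the overlap was not given in the sources used here.

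The distance between the control samples was large for several mucins compared with the other genes tested. The median absolute difference between the controls was 0.327 on the log2 scale, and 85 of 15372 genes (0.553%) were at least 4 times higher in sh-TRC replicate 2, MUC5AC and MUC5B among them, while 185 (1.2%) were at least 4 times higher in sh-TRC replicate 1, among them MUC6. A larger difference toward sh-TRC replicate 2 than that of MUC5AC (2.39) was found for 53 genes, and for 62, 103 and 537 genes in the case of MUC5B (2.23), MUC2 (1.82) and MUC1 (0.93). MUC6 stood on the other side at -2.81, with 44 genes lower. MUC4 (-0.44) and MUC16 (-0.42) were nearer to 0.

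**Figure D4:**
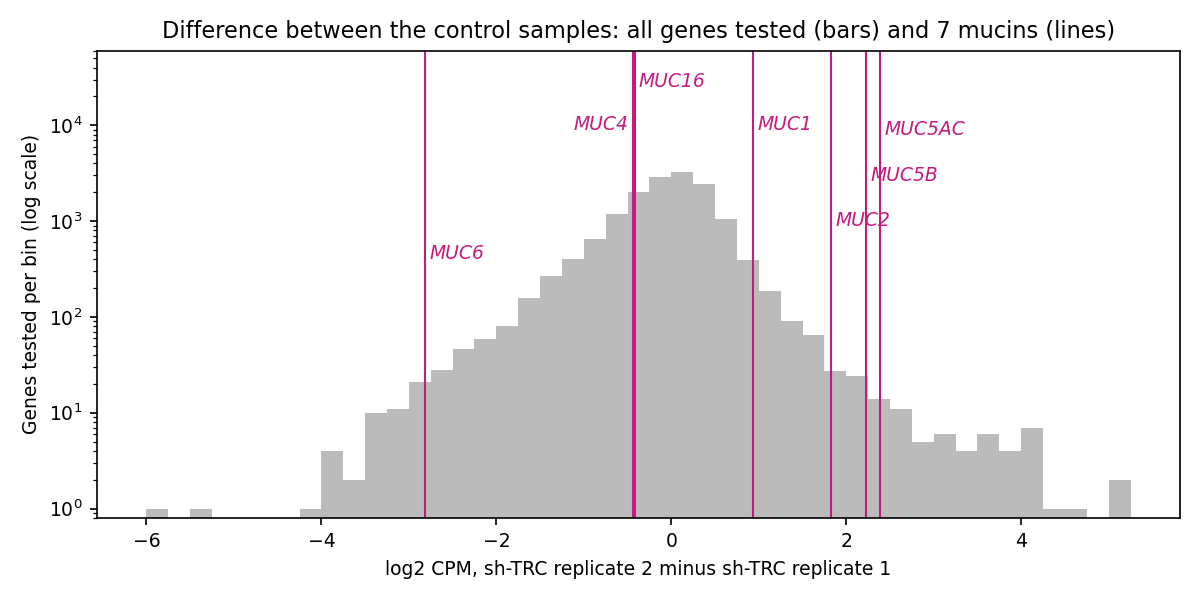
Number of genes (log axis) by the difference in log2 CPM between sh-TRC replicates 2 and 1, for 15372 genes tested (grey bars), with lines at 7 mucin genes. MUC5AC, MUC5B and MUC2 lie far to the right, toward sh-TRC replicate 2, and MUC6 far to the left at -2.81.

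Summed over the 10 genes, mucin FPKM were 22.1 and 89.2 in the controls, 14.5 and 11.1 with sh-MIR100HG-1, and 21.0 and 20.1 with sh-MIR100HG-2. The sum followed MUC5AC, and sh-TRC replicate 1 lay close to the sh-MIR100HG-2 samples. All 7 genes tested had a log2FC below 0 in knockdown against control. Their median was -1.04, beside -0.04 over all genes tested. The 7 share the same libraries and are not separate observations. Without sh-TRC replicate 2 the log2FC was -0.55 for MUC5AC, -0.44 for MUC5B, -0.12 for MUC2 and -0.20 for MUC1. MUC6 and MUC16 changed sign when a single sample was left out. None of the 7 passed an adjusted p of 0.05 in edgeR's quasi-likelihood test. Nor did any gene in knockdown against control or in the 3 other comparisons (0% of 15372 genes called in each).

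At an unadjusted p under 0.05, 4 of the 7 were lower and 0 were higher, beside 4.44% and 3.23% of all genes. The likelihood ratio test and DESeq2 each called 2 of them, MUC5AC and MUC4, beside 0.709% and 0.937% of all genes with an adjusted p, and the fit without the filter called MUC5B as well, beside 1.84%. Counted by samples, 2 of the 7 (MUC5AC and MUC4) had all knockdown samples below both controls, which 9.08% of genes showed, and 0 had all above, which 8.4% showed. Between the shRNAs, 2 of the 7 (MUC4 and MUC6) had both sh-MIR100HG-2 samples below both sh-MIR100HG-1 samples and 2 (MUC5AC and MUC1) had both above, beside 23.3% and 20.6% of all genes. Since the genes were chosen with these counts known, nothing is read from the shares.

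**Figure D5:**
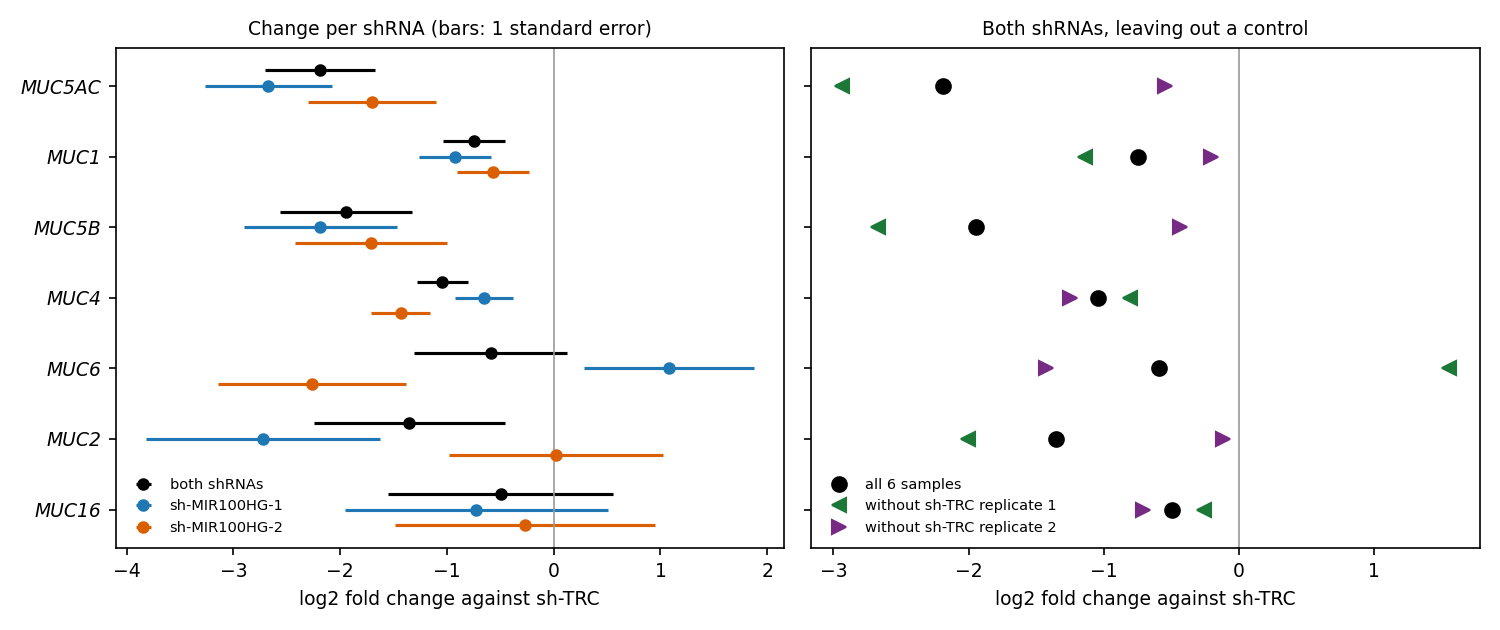
Log2FC of 7 mucin genes against sh-TRC. The left panel gives both shRNAs together and each alone with bars of 1 standard error, and the right panel gives both shRNAs with all 6 samples and without each control. MUC5AC moves from -2.19 to -0.55 without sh-TRC replicate 2, MUC6 changes sign without sh-TRC replicate 1, and MUC4 stays between -1.25 and -0.81.

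The genes whose pattern over the 6 samples was most like that of MUC5AC were SPINT2, a membrane-bound inhibitor of serine proteases (Pearson r of log2 CPM 0.997), KICS2, a subunit of the KICSTOR complex that regulates mTORC1 (0.992), and ADIRF (0.988). For MUC1 they were MAGED2 (0.996), KICS2 (0.993) and LTBP3, which binds latent TGF-beta (0.993). These are the highest values over 15372 genes with n = 6, and in each of these genes sh-TRC replicate 2 was the highest sample. SPINT2 had 243 and 362 CPM in the controls, 201 and 197 with sh-MIR100HG-1, and 235 and 238 with sh-MIR100HG-2. Among the mucins, r with MUC5AC was 0.987 for MUC1, 0.930 for MUC5B, 0.734 for MUC2, 0.272 for MUC4 and -0.63 for MUC6. The samples share libraries and the 2 controls, so these are descriptions.

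Genes that build, store and regulate mucins were counted by lists, and none of their 104 tested genes passed an adjusted p of 0.05 in knockdown against control. At an unadjusted p under 0.05, 5 were higher and 4 lower, 8.65% in all beside 7.68% of all genes tested. Of the other mucins and mucin-like genes, 7 of 16 were tested. Their log2FC was above 0 for 4 and below 0 for 3, with a median of 0.06. Since the 7 members tested were chosen with these counts known, they are not compared with this list. The 1 gene lower at an unadjusted p under 0.05 was MCAM, an adhesion molecule (log2FC -1.29, SE 0.56, unadjusted p = 0.0414 in edgeR's quasi-likelihood test). It had 182 and 116 CPM in the controls, 127 and 34.9 with sh-MIR100HG-1, and 69.4 and 21.8 with sh-MIR100HG-2, and so overlapped with the controls. Of the mucin-locus noncoding genes and pseudogenes only MUC20-OT1 was tested, with a log2FC of -0.14.

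Trefoil factor TFF2, a small secreted peptide that is stored with MUC6 in gastric mucus, had the smallest p of these lists. It stood at 9.997 and 15.9 CPM in the controls, 6.31 and 2.83 with sh-MIR100HG-1, and 4.83 and 3.22 with sh-MIR100HG-2, with no overlap between knockdown and control. Its log2FC was -1.59 (SE 0.38, unadjusted p = 0.00234, adjusted p = 0.446 in edgeR's quasi-likelihood test). It was the 1 gene at an unadjusted p under 0.05 among 18 tested genes of mucus folding, packaging and secretion, whose median log2FC was -0.16.

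GalNAc transferases attach the first sugar of O-glycans to mucin proteins. Of 15 tested, GALNT3 was higher (log2FC 0.74, SE 0.21, unadjusted p = 0.00774) and GALNT16 lower (log2FC -1.62, SE 0.58, unadjusted p = 0.0183), and the median log2FC was -0.11. GALNT3 had 56.9 and 50.7 CPM in the controls and 69.6 to 129 CPM in the knockdown samples, whereas GALNT16 lay below 0.6 CPM in every sample. Of 20 tested genes that extend and cap O-glycans, 0 passed an unadjusted p under 0.05 in either direction, and their median log2FC was 0.03.

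Among 22 tested regulators of mucin genes, STAT3, a cytokine-activated transcription factor, was higher (log2FC 0.78, SE 0.20, unadjusted p = 0.00575) and SPDEF, an ETS factor of goblet cells, was lower (log2FC -0.83, SE 0.33, unadjusted p = 0.0325). STAT3 had 245 and 294 CPM in the controls, 356 and 482 with sh-MIR100HG-1, and 459 and 564 with sh-MIR100HG-2, without overlap. SPDEF had 53.2 and 95.9 CPM, 48.7 and 25.3 CPM, and 55.1 and 40.2 CPM, so that sh-TRC replicate 2 was again the highest sample and 1 knockdown sample lay above the lower control.

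Of 21 tested partners and sheddases of membrane mucins, 3 were higher and 0 lower at an unadjusted p under 0.05, beside 3.23% and 4.44% of all genes. These were ICAM1, an adhesion receptor that binds MUC1 (log2FC 1.0, SE 0.28, unadjusted p = 0.00785), ADAM17, a protease that sheds MUC1 (log2FC 0.48, SE 0.18, unadjusted p = 0.031), and MSN, which links membrane proteins to actin (log2FC 0.43, SE 0.18, unadjusted p = 0.0453). ICAM1 stood at 239 and 265 CPM in the controls, 215 and 363 with sh-MIR100HG-1, and 1102 and 662 with sh-MIR100HG-2, with the higher values on the side of sh-MIR100HG-2.

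Within 100 kb of the 10 genes, 28 of 38 other genes were tested, and 3 were lower at an unadjusted p under 0.05 while 0 were higher, beside 4.44% and 3.23% of all genes. Among them were TRIM46 (log2FC -2.03, SE 0.74, unadjusted p = 0.02) and THBS3, a thrombospondin (log2FC -1.03, SE 0.39, unadjusted p = 0.0244), both beside MUC1. TRIM46 was counted only 38 and 10 times in the controls, 12 and 7 times with sh-MIR100HG-1, and 4 and 2 times with sh-MIR100HG-2. Its sh-MIR100HG-1 replicate 1 (0.181 CPM) lay above sh-TRC replicate 2 (0.170 CPM), so knockdown and control overlapped. THBS3 had 10.6 and 9.16 CPM in the controls, 7.56 and 3.52 with sh-MIR100HG-1, and 5.53 and 2.90 with sh-MIR100HG-2, with no overlap between knockdown and control. At the ends of the chromosome 11 cluster, AP2A2 beside MUC6 (log2FC -0.21, SE 0.22) and TOLLIP beside MUC5B (log2FC -0.12, SE 0.24) both had knockdown samples on either side of the lower control. The sharp difference between the control samples of MUC5AC and MUC5B was smaller in these neighbours, with 82.97 and 112 CPM for AP2A2 and 107 and 146 CPM for TOLLIP.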

How the data were processed

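Total RNA of 6 samples was isolated with TRIzol and sequenced. The authors trimmed barcodes, mapped reads to GRCh37 with STAR and assigned them to exons grouped into genes with FeatureCounts, and the submitters' processing notes name STAR 2.5.2a. Unnormalized read counts of 27745 genes were deposited, along with the exon length of each gene in bases. Strand setting and treatment of multimapped reads are not given in the sources used here, so overlapping genes and repetitive mucin exons are uncertain. Every sample column was matched to a label (0 unmapped).

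The members and lists were chosen with earlier results of these data known. A gene was removed where 3 or more of the 6 samples held fewer than 5 counts (12373 genes), which left 15372. Counts were normalized by TMM and fitted as 3 groups in 1 model with edgeR 4.0.16 (quasi-likelihood, 3 residual degrees of freedom, R 4.3.3), with Benjamini-Hochberg adjustment over all genes tested. Groups compared were both shRNAs or each shRNA against sh-TRC, and the shRNAs with each other. CPM use TMM-scaled library sizes, and FPKM divide them by deposited length. Genes reported by name are the 10 mucins, MIR100HG, cell line markers, list genes and neighbours called at an adjusted p of 0.05 or, failing these, up to 3 per list with the smallest unadjusted p under 0.05, and the 3 genes with the highest Pearson r (log2 CPM, prior count 2) to MUC5AC and MUC1. One gene that this rule names is not reported here. FOS, AP2A2 and TOLLIP were added after their values were seen. The fit was also run on simulated counts, drawn independently for each gene and sample. These held no shifts shared by genes within a library, so the fit was not checked against such shifts. Alternatives were no filter, the likelihood ratio test, DESeq2 1.42.0, its size factors within edgeR, a replicate block and leaving out each sample. Mean FPKM without sh-TRC replicate 2 were added after the data were seen. Same-numbered samples did not deviate together in every pair of groups (r = -0.205, 0.0063 and 0.436), so the numbers were not taken to pair samples.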

Additional observations from a re-analysis of the deposited data

Results flagged for a closer look

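Among the 4 knockdown samples, MUC2 in sh-MIR100HG-2 replicate 1 stood far from the others, at 2.42 CPM against 0.0945 to 0.286 CPM. Its gap to the nearest sample took up 0.918 of the whole range, above the critical value of Dixon's test for 4 samples. By chance about 5% of groups drawn from 1 population pass it. The samples here come from different shRNAs and the gene was chosen with these counts known. That rate therefore does not apply, and the gap is given as a description.

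MUC6 differed between the shRNAs, and the controls were split in the same way. In CPM, sh-TRC replicate 1 (1.90) was near the sh-MIR100HG-1 samples (2.08 and 2.43). The other control, sh-TRC replicate 2 (0.238), was near the sh-MIR100HG-2 samples (0.220 and 0.220). No direction against the controls is read for either shRNA. Both sh-MIR100HG-1 samples lay above both controls and both sh-MIR100HG-2 samples lay below both, and the difference between them (sh-MIR100HG-2 minus sh-MIR100HG-1) was -3.34 on the log2 scale. The gene was chosen with these counts known, so the difference is described and was not tested on its own. In edgeR's quasi-likelihood test over 15372 genes, MUC6 among them, no gene passed an adjusted p of 0.05 between the shRNAs.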

How the results depend on the processing

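The 7 mucins tested kept a log2FC below 0 in knockdown against control under all alternatives except for 2 values. MUC6 was at 1.56 without sh-TRC replicate 1 and ran from -1.42 to 1.56 over the left-out samples, and MUC16 was at 0.038 without sh-MIR100HG-1 replicate 1 and ran from -4.00 to 0.038. Of the alternative log2FC values, 69 moved by less than 1 SD, 6 moved by more and 2 changed sign. This SD is not the SE given with each log2FC. The 69 hold large shifts too, such as MUC2 from -1.35 to -0.12 without sh-TRC replicate 2, so their number is no measure of stability.

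Counts of genes at an adjusted p of 0.05 were 0 in the reported test and depended on the tool. Without the filter on low counts they were 392 (both shRNAs), 227 (sh-MIR100HG-1), 517 (sh-MIR100HG-2) and 679 (between shRNAs). The likelihood ratio test called 109, 34, 121 and 91 genes, and DESeq2 called 130, 66, 167 and 103. Called among the mucins were 3 without the filter (MUC5AC, MUC5B and MUC4) and 2 by the likelihood ratio test and DESeq2, and among the pathway genes 9 without the filter and 1 (TFF2) by either tool. The cause was not tested. With any 1 sample left out, the counts ranged from 0 to 1 for both shRNAs, 0 to 3 for sh-MIR100HG-1, 0 to 5 for sh-MIR100HG-2, 0 to 7 between shRNAs, and 0 to 1 for the mucins. The 1 gene called without sh-TRC replicate 1 was MUC5AC. The lone sample of a group was assumed to vary like the other groups.

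With the replicate block 0 genes were called, and MUC5AC had a log2FC of -1.95. Same-numbered samples share only a number. MUC3A, MUC13 and MUC20 were fitted only without the filter, where none was called, and groups of 2 limit every comparison.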

Other observations

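Some genes of the lists split the libraries in a further way, and were picked after their values were seen. ERBB4, a receptor kinase, stood at 5.17 CPM in sh-TRC replicate 2 and 4.68 CPM in sh-MIR100HG-1 replicate 1, against 0.112 to 0.354 CPM in the other 4 samples. ESR1, the oestrogen receptor, stood at 2.38 and 2.79 CPM in the same libraries, against 0.120 to 0.590 CPM. FOXA1, a forkhead factor that acts with ESR1 in luminal cells, stood at 1.22 and 1.22 CPM there, against 0.0236 to 0.160 CPM. MUC5AC was highest in sh-TRC replicate 2 but at 46.7 CPM in sh-MIR100HG-1 replicate 1, so it did not share this split.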
